A study of Mus musculus with 74 samples.

Results

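The genes described here encode collagen VI, the tenascins and a group of matrix-binding glycoproteins of the extracellular matrix (ECM): Col6a1, Col6a2, Col6a3, Tnc, Tnn, Tnxb, Fn1, Sparc, Postn and Spp1. These 10 genes, chosen by name with earlier results of these data known, were looked up in 6 tables that compare lung metastases (Lung met) with primary mammary tumors (PT). All 10 were listed in the C3Tag, BALB and SEAGN tables, among 19320, 17270 and 17351 genes with means for both tissues. The Her2 table, of 18208 genes, and the PyMT-F1 table deposited under AKR, of 17829 genes, listed 9 of the 10 and lacked Tnn.

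Bulk RNA-seq was made from 74 tissue samples of female mice, as 1 PT and 1 Lung met of each of 6 animals per model, or 7 animals in C3Tag. In the FVB Her2, FVB C3Tag and FVB Myc models, transgenic males of the FVB strain were crossed to FVB/NJ females, and the transgene is MMTV-Her2, C3(1)-TAg or MMTV-Myc. In the PyMT-F1 models, FVB males with the MMTV-PyMT transgene were crossed to AKR/J, BALB or SEA/GnJ females, so these tumors arose in F1 hybrids. MMTV and C3(1) are the promoters that drive each oncogene in mammary epithelium, and every PT and Lung met group carries its model's transgene. PTs of the driver models came from animals with single lesions and were resected while small, after which the animals were aged, whereas PyMT animals were followed to a humane endpoint. All PTs of an animal were pooled, whole metastatic nodules were used, and no treatment or age is given in the labels. Each value below is a group mean made by the authors, with no SD and no value of any animal, so no difference could be tested and the spread between animals is unknown. Lower and higher give the direction of the Lung met mean against the PT mean, and every fold is the ratio of these means. A gene is counted by the 2-fold rule when they differed by at least 2-fold. Whether the tables share a normalization is not given in the sources used here, so levels are compared between tissues within a table and not between models. The means added up to between 6833241 and 40891823 per group, and in the C3Tag PTs, which had the highest sum, 1 gene that is not among the 10 gave 15645841 of it. The table under AKR carries mouse reference gene identifiers like the driver tables, while the BALB and SEAGN tables carry BALB/cJ identifiers and were matched by symbol. Whether it holds the AKR cross is in doubt, so it is called AKR-named below.

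Collagen VI is a beaded-filament collagen of the pericellular matrix, assembled from the alpha1, alpha2 and alpha3 chains that Col6a1, Col6a2 and Col6a3 encode. Tenascins are large glycoproteins with repeated domains: tenascin C appears in remodeling and tumor stroma, tenascin N (also called tenascin W) in bone and tumor stroma, and tenascin X in loose connective tissue, where it helps organise collagen fibrils. Fibronectin (Fn1) is a cell-adhesive glycoprotein bound by integrins. SPARC, periostin (Postn) and osteopontin (Spp1) are matricellular proteins, which sit in the matrix and act on cells more than they build structure. Stromal fibroblasts are a well-known source of collagen VI, periostin and tenascins in tumors, while osteopontin is made by tumor cells and macrophages.

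Promoter sequence is shown for the genes that carry the pattern below: the 3 collagen VI chains, which form 1 protein, Tnn and Postn, whose means were lower in Lung met, by whatever size, in every table that listed them, and Spp1, which had the largest Her2 difference. These are RefSeq windows on GRCm38.p6, matched by symbol for 9 of the 10 genes (Fn1 had none), cut to the 250 bases before the start of transcription and written 5′ to 3′ on the gene's strand. Where RefSeq gave several starts, the one nearest the GENCODE gene end was taken. Capitals mark matches on either strand to the TATA box core TATAAA, the AP-1 motif TGACTCA, the GC box GGGCGG and the RUNX core TGTGGT. No match overlapped another in these windows. The Col6a1 window lies at chr10:76726045-76726294 (minus strand) and that of Col6a2 at chr10:76623631-76623880 (minus). The Col6a3 window lies at chr1:90843972-90844221 (minus), that of Tnn at chr1:160153576-160153825 (minus), that of Postn at chr3:54360857-54361106 (plus) and that of Spp1 at chr5:104434861-104435110 (plus).
Col6a1: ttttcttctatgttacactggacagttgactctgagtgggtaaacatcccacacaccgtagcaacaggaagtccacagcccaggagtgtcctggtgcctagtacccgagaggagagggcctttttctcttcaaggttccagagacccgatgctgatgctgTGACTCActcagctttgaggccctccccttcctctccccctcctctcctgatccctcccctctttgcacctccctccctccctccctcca
Col6a2: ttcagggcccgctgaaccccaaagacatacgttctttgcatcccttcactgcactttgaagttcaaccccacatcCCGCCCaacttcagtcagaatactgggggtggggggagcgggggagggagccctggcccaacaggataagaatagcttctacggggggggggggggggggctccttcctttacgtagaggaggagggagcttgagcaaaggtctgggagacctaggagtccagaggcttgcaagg
Col6a3: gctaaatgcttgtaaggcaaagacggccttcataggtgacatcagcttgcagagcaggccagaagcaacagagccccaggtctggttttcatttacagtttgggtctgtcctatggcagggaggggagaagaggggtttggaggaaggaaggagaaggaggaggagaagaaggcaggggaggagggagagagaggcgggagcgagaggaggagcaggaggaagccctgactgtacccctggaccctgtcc
Tnn: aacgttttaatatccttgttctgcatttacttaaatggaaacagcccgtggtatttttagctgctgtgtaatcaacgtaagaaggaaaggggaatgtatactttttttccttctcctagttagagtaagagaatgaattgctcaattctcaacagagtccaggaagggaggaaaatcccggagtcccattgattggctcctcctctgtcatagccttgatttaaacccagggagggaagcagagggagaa
Postn: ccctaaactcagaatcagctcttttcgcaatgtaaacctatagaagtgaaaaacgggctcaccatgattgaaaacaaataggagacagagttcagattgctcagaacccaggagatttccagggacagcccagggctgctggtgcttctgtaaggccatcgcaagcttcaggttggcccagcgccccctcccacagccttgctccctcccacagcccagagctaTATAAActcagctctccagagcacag
Spp1: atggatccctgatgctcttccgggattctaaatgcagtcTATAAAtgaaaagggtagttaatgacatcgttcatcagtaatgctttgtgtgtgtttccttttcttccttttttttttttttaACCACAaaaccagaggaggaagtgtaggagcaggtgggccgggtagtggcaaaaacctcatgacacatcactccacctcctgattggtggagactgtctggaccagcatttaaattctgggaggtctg

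The 3 collagen VI windows shared none of the 4 motifs. That of Col6a1 held 1 AP-1 motif, which starts 90 bases before the transcription start, and that of Col6a2 held 1 GC box, on the opposite strand, 175 bases before it. Postn had a TATA box core 26 bases before the start. Spp1 held a TATA box core 211 bases and a RUNX core, on the opposite strand, 128 bases before the start. The windows of Col6a3 and Tnn held no match. Over the 9 windows, TATAAA occurred in 3, TGACTCA in 2, GGGCGG in 2 and TGTGGT in 1. Among 32851 RefSeq windows of the same length, 12.4%, 4.46%, 32.7% and 14.0% held these motifs. A match describes the letters and does not show that a factor binds.

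Across models, Col6a1, Col6a2, Postn and, where listed, Tnn had lower means in Lung met and Fn1 a higher mean, while Col6a3, Tnc, Tnxb, Sparc and Spp1 differed in direction between models. Counted by the 2-fold rule, 6 of 10 genes were lower and 0 higher in BALB, where 2.4% of all genes were lower and 2.26% higher. SEAGN also had 6 of 10 lower and 0 higher, against 3.22% and 2.86% of all genes. In Her2, 4 of 9 were lower and 2 higher, against 1.43% and 2.38%. In C3Tag, 3 of 10 were lower and 1 higher, against 1.7% and 7.42%, and in AKR-named 2 of 9 were lower and 1 higher, against 1.73% and 7.31%. The median log2 ratio (Lung met over PT) of the listed members was -0.95 in Her2, -0.08 in C3Tag, -1.44 in BALB, -1.45 in SEAGN and -0.63 in AKR-named. The median over all genes of a table lay between -0.0013 and 0.03. By direction alone, whatever the size, Col6a1, Col6a2 and Postn of the 9 genes listed in all 5 tables were lower in every table and Fn1 was higher in every table. Of 12317 genes with 1 row per symbol in all 5, 6.29% were lower and 11.6% higher throughout by the same measure. The 1 of 9 members higher throughout is thus near the share of all genes. By the 2-fold rule, Col6a1 and Col6a2 were lower in 3 tables each, Postn in 4, and Fn1 was higher in 3.

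**Figure D1:**
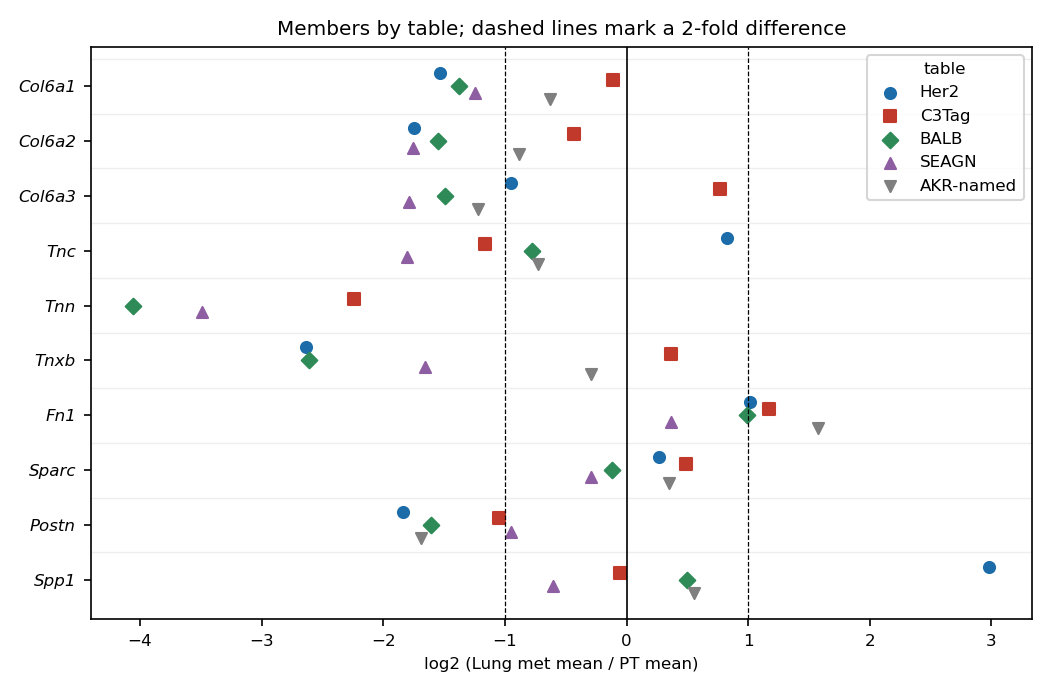
Log2 ratio of the Lung met mean over the PT mean (x axis) for each of the 10 genes (rows), 1 point per table. Postn lies left of zero in all 5 tables and Fn1 right of zero in all 5, while the C3Tag points of Col6a3 and Tnxb lie right of zero, away from those of the other tables.

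Col6a1 (ENSMUSG00000001119; chr10:76708792-76726168, minus strand) and Col6a2 (ENSMUSG00000020241; chr10:76595762-76623630, minus) are neighbours, 85.2 kb apart, in the GENCODE M21 annotation of GRCm38. The Col6a1 mean was 1630 in PT and 563 in Lung met of Her2, a log2 ratio of -1.53. It was 573 and 220 in BALB (-1.38), 806 and 340 in SEAGN (-1.24), 1277 and 825 in AKR-named (-0.63), and 2850 and 2635 in C3Tag (-0.11). The alpha1 chain transcript was thus 2.37- to 2.89-fold lower in 3 models and nearly level in C3Tag, where 34.1% of all genes had a lower ratio.

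Col6a2 stood at 1206 in PT and 359 in Lung met of Her2, 630 and 215 in BALB, 902 and 267 in SEAGN, 1070 and 579 in AKR-named, and 2081 and 1542 in C3Tag. Its log2 ratios were -1.75, -1.55, -1.76, -0.89 and -0.43 in that order. The alpha2 chain was lower than the alpha1 chain in its ratio in each of the 5 tables, by 0.17 (BALB) to 0.52 (SEAGN) on the log2 scale. Over the tables the log2 ratio of Col6a1 was -0.98 ± 0.59 and that of Col6a2 -1.27 ± 0.59 (mean ± SD, n = 5 tables), an SD that describes the spread between models and not between animals.

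Col6a3 (ENSMUSG00000048126; chr1:90765923-90843971, minus) encodes the longest of the 3 chains. Its mean was 2050 in PT and 1062 in Lung met of Her2, a 1.93-fold lower level that misses the 2-fold rule. It was 1236 and 439 in BALB, 1525 and 442 in SEAGN, and 1241 and 534 in AKR-named, which are 2.82-, 3.45- and 2.33-fold lower. In C3Tag it was the other way round, at 3216 in PT and 5493 in Lung met, 1.71-fold higher. The chains thus parted in C3Tag, where the log2 ratio of Col6a3 was 0.89 above that of Col6a1. The same difference was 0.58 in Her2, -0.12 in BALB, -0.54 in SEAGN and -0.59 in AKR-named. Whether these differences exceed the spread between animals was not tested.

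**Figure D2:**
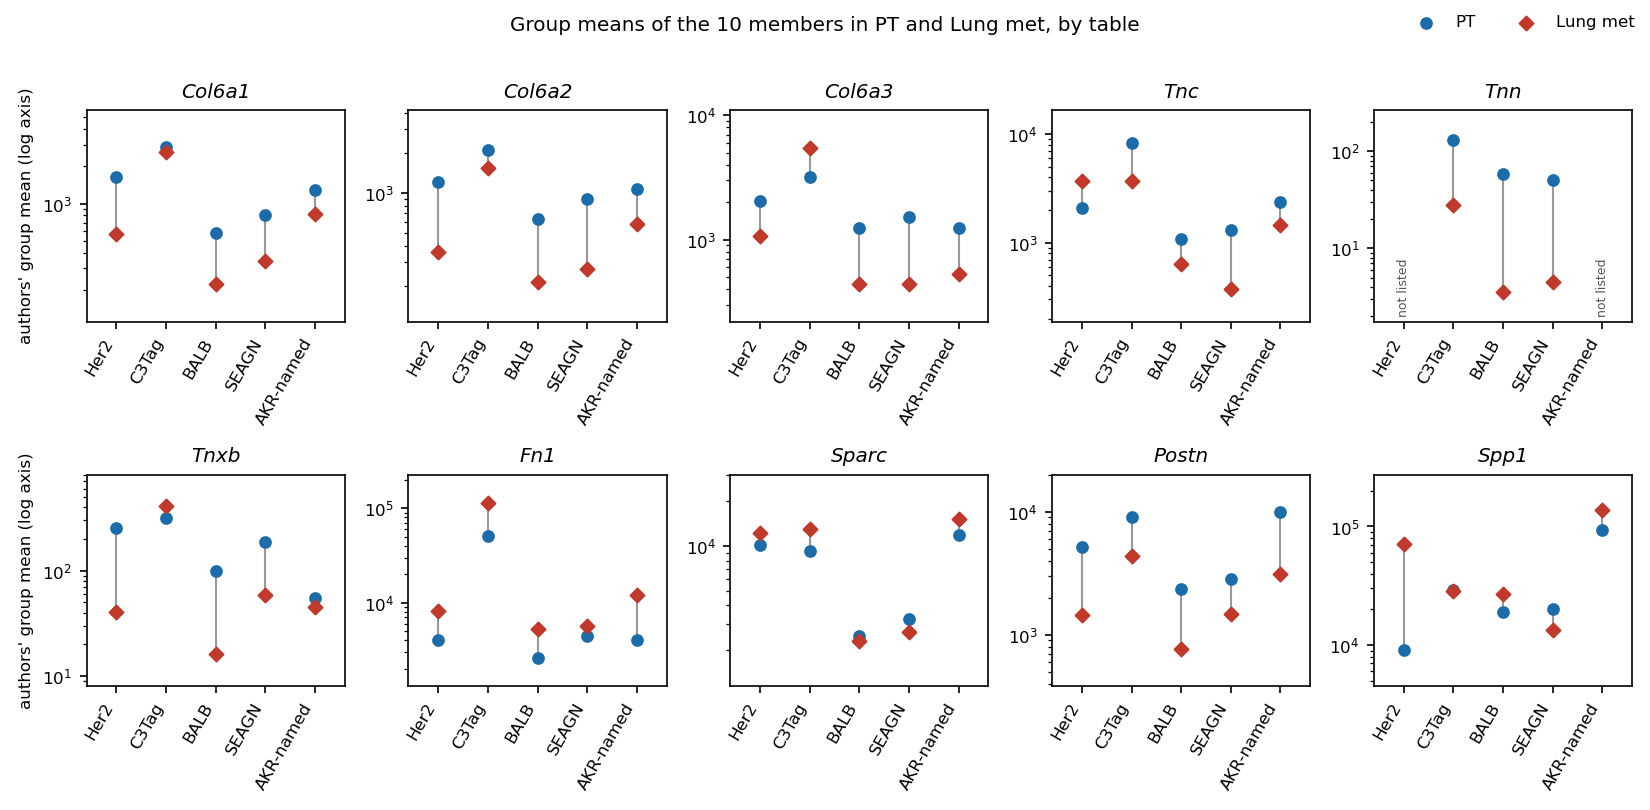
The authors' group mean (y axis, log scale, its range set for each gene) in PT (blue circles) and Lung met (red diamonds) for each of the 10 genes (panels) in each table (x axis). No error is shown because the tables give none. Lung met lies below PT for Col6a1, Col6a2 and Postn in all 5 tables and above PT for Fn1 in all 5.

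The tenascin genes Tnn and Tnxb had the lowest ratio of the group in 4 of the 5 tables, Tnn in C3Tag, BALB and SEAGN and Tnxb in Her2. Tnn (ENSMUSG00000026725; chr1:160085029-160153580, minus) was 4.72-fold lower in C3Tag, with means of 132 in PT and 27.96 in Lung met. It was 16.6-fold lower in BALB (58.7 and 3.53) and 11.3-fold lower in SEAGN (50.7 and 4.50). The log2 ratios, -2.24, -4.06 and -3.49, were lower than those of at least 99.6% of the genes of each table. The Lung met means of BALB and SEAGN are low, and adding 10 to both means brought these 2 log2 ratios to -2.34 and -2.07.

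Tnxb (ENSMUSG00000033327; chr17:34670535-34719815, plus) was 6.22-fold lower in Her2, at 254 in PT and 40.8 in Lung met. It was 6.10-fold lower in BALB (98.8 and 16.2) and 3.15-fold lower in SEAGN (188 and 59.5). In AKR-named the means were 55.3 and 45.0, a log2 ratio of -0.30, and in C3Tag they were 316 and 406, a ratio of 0.36 in the other direction. Tnxb therefore had the widest spread of the tenascins, -1.37 ± 1.36 (log2, mean ± SD, n = 5 tables). Its exons share bases with the pseudogene Cyp21a2-ps on the opposite strand, and whether counting used strand is not given in the sources used here.

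Tnc (ENSMUSG00000028364; chr4:63959785-64047015, minus) followed another order. It was 3.50-fold lower in SEAGN (1310 in PT and 374 in Lung met) and 2.25-fold lower in C3Tag (8330 and 3708). In BALB (1089 and 634) and AKR-named (2388 and 1445) the ratios were -0.78 and -0.73. In Her2 the tenascin C mean was 2076 in PT and 3683 in Lung met, 1.77-fold higher, a ratio that 3.22% of genes exceeded. Her2 thus had the highest Tnc ratio of the 5 tables and the lowest Tnxb ratio (log2 -2.64). BALB was close to Her2 for Tnxb (-2.61), with a Tnc ratio of -0.78. C3Tag had the highest Tnxb ratio with Tnc 2.25-fold lower. The exons of Tnc share bases with 8030451A03Rik, a transcript on the opposite strand.

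Fibronectin was the gene of this group at a higher level in Lung met of every table, a direction shared by 11.6% of the genes in all 5 tables. Fn1 (ENSMUSG00000026193; chr1:71585520-71653200, minus) had means of 4052 in PT and 12093 in Lung met of AKR-named, 2.98-fold higher. In C3Tag they were 50248 and 113230, 2.25-fold higher. Her2, at 4038 and 8168, and BALB, at 2638 and 5225, lie just inside and just outside the 2-fold rule, with log2 ratios of 1.02 and 0.99. SEAGN showed the smallest difference, at 4454 and 5732, a log2 ratio of 0.36. The mean over tables was 1.02 ± 0.44 (log2, SD, n = 5 tables), and 2.10% of the genes in all 5 tables had a higher mean ratio. Without AKR-named it was 0.88 ± 0.36 (n = 4 tables). An antisense gene, Apol7d, shares exonic bases with Fn1.

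Periostin differed in the direction opposite to fibronectin in each table. Postn (ENSMUSG00000027750; chr3:54361109-54391037, plus) had means of 5183 in PT and 1453 in Lung met of Her2, 3.57-fold lower. AKR-named gave 10038 and 3116 (3.22-fold lower), BALB 2340 and 768 (3.05-fold) and C3Tag 9050 and 4385 (2.06-fold). SEAGN, at 2837 and 1466, was 1.94-fold lower and so just outside the rule. The log2 ratio was -1.43 ± 0.40 (SD, n = 5 tables), a spread smaller than that of any other gene of the group measured in 5 tables except Sparc. In C3Tag, where the ratio of Col6a1 was close to 0 and Col6a3 was at a higher level in Lung met, Postn was still 2.06-fold lower, with 1.55% of genes below it.

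**Figure D3:**
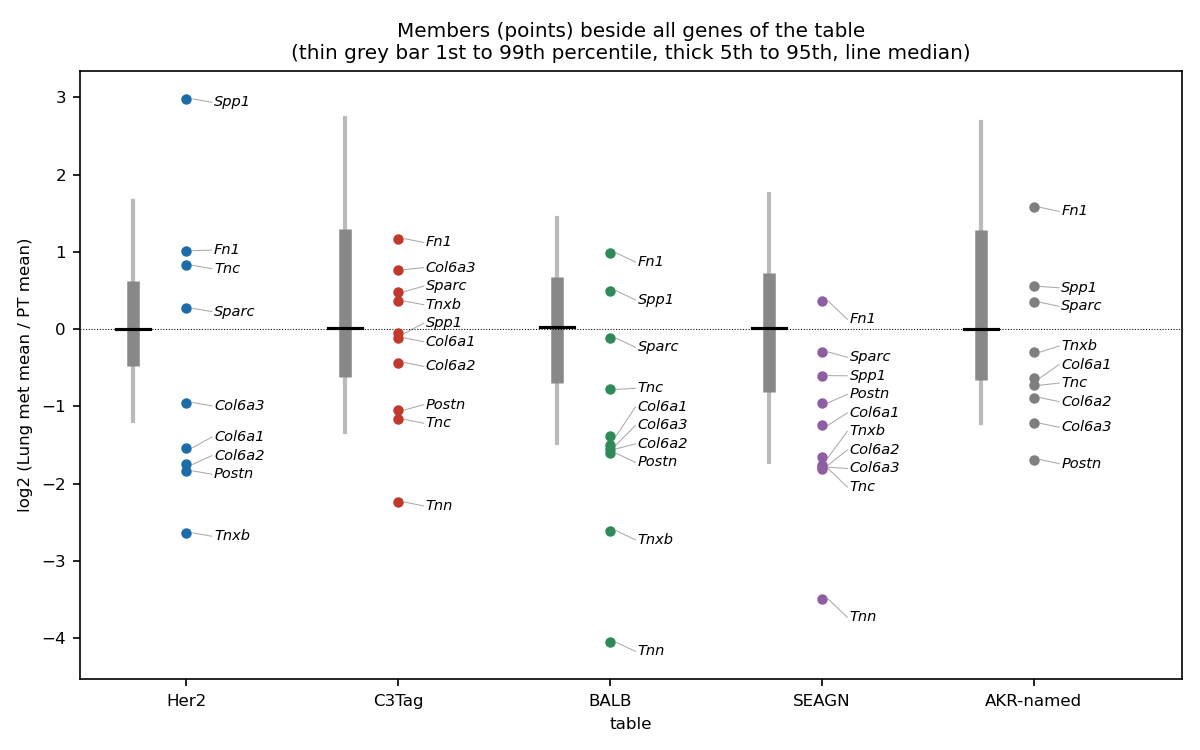
Log2 ratio of Lung met over PT (y axis) of each gene of the group (coloured points with names) beside all genes of the same table (grey bars: thin, 1st to 99th percentile; thick, 5th to 95th percentile; black line, median). Postn lies below the 5th percentile in all 5 tables, and Tnn below the 1st in each of its 3.

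SPARC differed little between the tissues. Sparc (ENSMUSG00000018593; chr11:55394500-55423183, minus), which encodes a collagen-binding protein, had means of 10127 in PT and 12214 in Lung met of Her2, and 9339 and 13092 in C3Tag. They were 2498 and 2301 in BALB, 3237 and 2639 in SEAGN, and 11858 and 15098 in AKR-named. Its log2 ratios ran from -0.29 in SEAGN to 0.49 in C3Tag, with no table past 2-fold.

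Osteopontin set Her2 apart. Spp1 (ENSMUSG00000029304; chr5:104435118-104441050, plus) had a mean of 9047 in PT and 71448 in Lung met of Her2, 7.90-fold higher, and 0.286% of the genes of that table had a higher ratio. No other table reached 2-fold. The means were 29401 and 28340 in C3Tag (log2 ratio -0.05), 19049 and 26865 in BALB (0.50), 20310 and 13391 in SEAGN (-0.60), and 93139 and 136693 in AKR-named (0.55). The spread over tables, 0.68 ± 1.37 (log2, SD, n = 5 tables), was larger than the mean itself, and 99.4% of the genes in all 5 tables had a smaller SD. The exons of Spp1 share bases with Gm42793, a gene model on the same strand.

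Levels were compared between genes per kilobase of exon, from 1.65 kb for Spp1 to 12.2 kb for Tnxb in GENCODE M21, within a table and tissue. This length joins the exons of all annotated transcripts of a gene, so it can exceed that of the transcript present, and the order depends on it. Spp1 had the highest mean per kilobase in both tissues of all 5 tables, at 5490 in Her2 PT and 43354 in Her2 Lung met. Sparc held rank 2 in both tissues of Her2, BALB, SEAGN and AKR-named, and rank 3 in C3Tag, where Fn1 held rank 2, at 4300 in PT and 9690 in Lung met. Col6a1 stood above Col6a2 and Col6a3 per kilobase in both tissues of each table, for example at 651, 250 and 269 in C3Tag PT. The joined length is 4.38 kb for Col6a1, 8.33 kb for Col6a2 and 12.0 kb for Col6a3. Without division by length, Col6a2 was 0.73 (C3Tag) to 1.12 (SEAGN) of Col6a1 in PT and 0.59 (C3Tag) to 0.98 (BALB) in Lung met. Its place below Col6a1 thus rests on length only in the PTs of BALB (1.10) and SEAGN. The undivided Col6a3 mean was above that of Col6a1 in both tissues of Her2, C3Tag, BALB and SEAGN, so its place there rests on length. In AKR-named it was 0.97 of Col6a1 in PT and 0.65 in Lung met. Tnn, where listed, and Tnxb took the lowest places. In Her2, Fn1 held rank 5 in PT and rank 3 in Lung met, and Postn rank 3 in PT and rank 5 in Lung met. With no spread between animals, neighbours in this order cannot be said to differ.

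The genes with the log2 ratios most like the mean of the 3 collagen VI chains were sought among 11793 genes by Euclidean distance over the 5 tables. The nearest 5 were Col14a1 (distance 0.59), Adamts6 (0.72), C1qtnf6 (0.73), Cygb (0.74) and Col5a1 (0.75). Col14a1 encodes a fibril-associated collagen chain, Col5a1 a fibrillar collagen chain, Adamts6 a secreted metalloprotease and Cygb the globin cytoglobin. Col14a1 had log2 ratios of -1.55 in Her2, -0.18 in C3Tag, -1.12 in BALB, -1.40 in SEAGN and -0.59 in AKR-named. Its likeness in each table follows from how it was picked. The C3Tag mean of the 3 chains, 0.08, averages chains that differed in direction. Among the group itself, Postn came 84th (distance 1.57) and Tnxb 150th (1.81), while Tnc came 3191st, Sparc 6294th, Fn1 11524th and Spp1 11593rd. The closest pair within the group was Col6a1 and Col6a2, at a distance of 0.71.

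A further 45 genes of the same pathway comprised 4 further collagen VI chains and tenascins, 14 other matricellular genes, 14 integrin subunits, 8 other receptors and 5 transforming growth factor (TGF)-beta ligands and receptors. By the 2-fold rule, C3Tag had 3 of 42 listed genes lower and 11 higher, beside 1.7% and 7.42% of all genes. BALB had 6 of 41 lower and 0 higher, beside 2.4% and 2.26%, and AKR-named 4 of 39 lower and 4 higher, beside 1.73% and 7.31%. Her2 had 3 of 40 lower and 2 higher, beside 1.43% and 2.38%, and SEAGN 2 of 38 lower and 1 higher, beside 3.22% and 2.86%. The medians of the 45 ran from -0.05 in BALB to 0.34 in C3Tag. Col6a4 and Tnr were in no table, and Col6a5 and Col6a6 each had both means in 1 table, at 18.7 in PT and 47.8 in Lung met of C3Tag and at 30.5 and 34.4 in AKR-named.

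Thbs2 and Thbs4, which encode the matricellular proteins thrombospondin 2 and 4, were the partner genes past 2-fold in the same direction in at least 4 tables. Thbs2 was lower in all 5, by 3.56-fold in Her2 (1692 in PT and 475 in Lung met), 4.52-fold in C3Tag, 6.22-fold in BALB, 7.29-fold in SEAGN and 4.78-fold in AKR-named. Thbs4 was lower in the 4 tables that gave both its means, by 7.71-fold in Her2, 4.16-fold in C3Tag, 10.5-fold in BALB and 3.46-fold in AKR-named. Sparcl1, a relative of Sparc, had a log2 ratio of 1.86 in C3Tag and 0.97 in Her2, and between -0.16 and 0.21 in the other 3. Tgfbi, whose product shares its domain type with periostin, was 2.33-fold higher in AKR-named, with log2 ratios of 0.08 to 0.56 elsewhere, so its direction differed from that of Postn in every table.

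In C3Tag 7.42% of all genes were higher by the 2-fold rule, the largest such share of any table. It also had the most receptors higher by the rule, 5 of 14 integrin subunits and 1 of 8 other receptors. These were Itga2 (7.33-fold) and Itga1 (2.45-fold), which encode alpha chains of collagen receptors, Itga9 (5.26-fold), whose integrin binds tenascin C and osteopontin, Itga4 (3.44-fold), Itgb6 (2.54-fold) and Antxr2 (3.41-fold). In AKR-named Itga9 (2.66-fold) and Itga4 (2.12-fold) were higher, and Itga2 was in Her2 (2.19-fold) and SEAGN (2.01-fold). Itga11, the alpha chain of another collagen receptor, was lower by the rule in the 3 tables that gave both its means, by 2.87-fold in Her2, 2.54-fold in C3Tag and 4.72-fold in BALB.

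The receptors chosen by name in any case stayed under 2-fold in each table. Cd44, which encodes a receptor of osteopontin and hyaluronan, had log2 ratios of 0.24 to 0.81, above 0 in all 5 tables. In Her2, where Spp1 was 7.90-fold higher, the Cd44 mean was 2715 in PT and 4529 in Lung met. Itga5, the alpha chain of the main fibronectin receptor, ranged from -0.41 in SEAGN to 0.97 in C3Tag. Itga8, whose integrin binds fibronectin, tenascin C and osteopontin, ranged from 0.28 to 0.87. Of the collagen VI receptors, Cspg4 (NG2) ranged from -0.68 in C3Tag to 0.39 in AKR-named and Antxr1 from -0.74 in SEAGN to 0.57 in C3Tag. The median of the TGF-beta list, whose ligands are known inducers of several of these matrix genes, lay between 0.04 in AKR-named and 0.80 in C3Tag. In C3Tag 2 of its 5 members, Tgfb2 (2.48-fold) and Tgfbr1 (2.39-fold), were higher by the 2-fold rule, beside 7.42% of all genes. In the other tables no member of the TGF-beta list passed the rule in either direction.

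Markers of other cell types that such tissue can hold also differed between PT and Lung met. The summed level of 8 fibroblast markers was 12065 in PT and 5946 in Lung met of Her2, 9188 and 3089 in BALB, 12536 and 2587 in SEAGN, 15017 and 6264 in AKR-named, and 27829 and 25069 in C3Tag. Their median log2 ratio was -1.49, -1.54, -2.37, -1.41 and -0.34 in that order, with 5 or 6 of 8 markers lower by 2-fold in the first 4 tables and 2 of 8 in C3Tag. C3Tag was thus the table with the smallest difference both for the fibroblast list and for Col6a1 and Col6a2. This did not hold for Postn or Tnc. Postn differed least in SEAGN (log2 ratio -0.95), where the fibroblast list had its lowest median, and Tnc was 2.25-fold lower in C3Tag. Col1a1 and Col1a2, which encode the chains of collagen I, made up most of each sum, for example 3457 and 5251 of 12065 in Her2 PT. The fibroblast list was not uniform: Lum, a fibril-binding proteoglycan, was lower in all 5 tables (log2 ratio -1.63 to -5.39), whereas Pdgfra, a receptor of lung and tumor fibroblasts, had ratios of 0.44 to 0.94. Which part the fibroblast markers have in the lower collagen VI, tenascin and periostin levels was not tested, and in bulk tissue fewer cells of a type and less RNA per cell cannot be told apart.

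Lung met also held more transcript of lung cell types, as 3 alveolar epithelial markers listed of 5 (Ager, Hopx and Lamp3) were higher by 2-fold in each table, their sum going from 173 in PT to 2911 in Lung met in Her2. The sums were 156 and 10186 in C3Tag, 27.5 and 547 in BALB, 27.3 and 1272 in SEAGN, and 484 and 14842 in AKR-named. All 5 endothelial markers had a higher mean in Lung met in every table, with medians of 0.59 to 1.79. The macrophage list, with 4 of 5 markers listed, had medians between -0.36 in Her2 and 0.43 in C3Tag. In Her2 its log2 ratios ran from -1.64 (Mrc1) to 0.07 (Cd68). Luminal epithelial markers had medians between -0.06 and 0.17 with none of 4 past 2-fold, although in C3Tag Epcam (log2 ratio -0.68) and Krt8 (0.64) differed in opposite directions. The medians of smooth muscle and pericyte markers lay between -0.44 and 0.56, with 5 of 5 listed in Her2, C3Tag and BALB and 2 of 5 in SEAGN and AKR-named. Those of the myoepithelial list were 1.09 in Her2 (3 of 4 listed), 1.12 in BALB (3 of 4) and 0.96 in SEAGN (4 of 4). They were -1.16 in C3Tag (2 of 4) and -0.55 in AKR-named (3 of 4). The medians of these lists thus rest on different genes in different tables. Of the adipocyte list, only Fabp4 was listed, in 4 tables, with ratios from -2.73 to -0.38, and 2 mesothelial markers were listed in C3Tag alone, with a median of 1.80. The part of these cell types in the higher Fn1 and in the Spp1 levels was not tested.

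**Figure D4:**
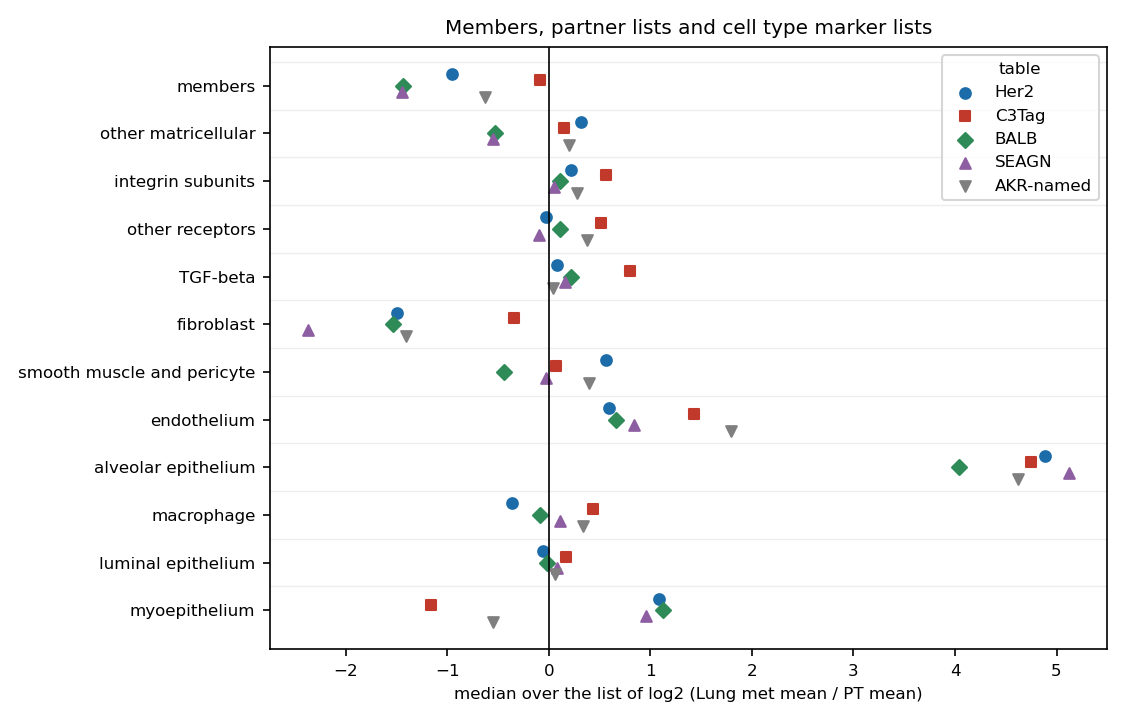
Median log2 ratio of Lung met over PT (x axis) for the 10 genes, 4 lists of partner genes and 7 lists of cell type markers (rows), 1 point per table. The fibroblast list lies left of zero in all 5 tables, at -0.34 in C3Tag and between -2.37 and -1.41 in the others, and the alveolar list lies above 4 in each.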

How the data were processed

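The paper describes mRNA libraries sequenced on a HiSeq2500, while the labels describe a stranded total RNA kit with ribosomal depletion. Reads were aligned and counted per gene by the authors in Partek Flow and normalized by a method that is not given in the sources used here. The authors then compared Lung met with PT, by Gene Specific Analysis in the driver models and by DESeq2 in PyMT-F1. The methods name mm9 and mm10, and the submitters' processing notes list STAR 2.7.8a, DESeq2 and mm39. The deposited least-squares means of each group, used here as a signal with neither SD nor n, are on the scale of normalized counts. The tables also hold the authors' p-values, false discovery rates, ratios and fold changes, which were not used. The Myc table holds only p-values and rates, so it entered only as a list of names, with 9 of the 10 genes among 17905.

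The log2 ratio is that of the Lung met mean over the PT mean, with no pseudocount and no filter, for genes with both means above 0. Genes were counted at a 2-fold difference, and counts were set beside the share of all genes called. Depth per sample is unknown, so no interval was computed. Samples were grouped by their titles, as 23 of the 36 PyMT-F1 samples carry another strain in the genotype label and 16 another tissue in the source name. The genes, their partner lists and the cell type markers were chosen with earlier results of these data known. Of the 45 partner genes the text names those past 2-fold in the same direction in at least 4 of 5 tables, and Sparcl1, Tgfbi, Cd44, Cspg4, Antxr1, Itga8 and Itga5 in any case. The nearest genes were sought among those with 1 row per symbol and an average mean of at least 10 in each table. Markers named singly, the other receptor and TGF-beta genes and the genes found in 1 table or none were picked after their values were seen. Positions and exon lengths are from GENCODE M21 on GRCm38, joined by gene identifier, and need not match the authors' build. Other folds, pseudocounts, centring, a filter, summed rows and leaving out each table were alternatives. The calculation was tested on simulated data. Python 3.11.15, numpy 2.4.6, pandas 2.3.3 and matplotlib 3.10.9 were used.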

Additional observations from a re-analysis of the deposited data

How the results depend on the processing

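No paired analysis was possible because the tables hold only group means, although each animal gave both tissues, and for the same reason no animal could be left out. No alternative changed the sign of a called ratio. A filter at a mean of 10, summing rows of a symbol and a pseudocount of 1 or 10 left every count of members called, and every median, within 1.5-fold of the value given. For the other folds, the counts that moved by more than 1.5-fold are listed in full, and some others changed by less. At 1.5-fold these smaller changes included members lower, from 6 to 8 in SEAGN and from 6 to 7 in BALB. They also included members higher in Her2, from 2 to 3, and partner genes higher in C3Tag, from 11 to 16. Of the larger changes at 1.5-fold, members higher were 1 in BALB and 2 in C3Tag and members lower 5 in AKR-named. Partner genes higher were then 8 in Her2, 4 in SEAGN and 8 in AKR-named, and partner genes lower 5 in Her2, 5 in C3Tag and 6 in SEAGN. At 4-fold, members lower were 1 in Her2, 1 in C3Tag, 2 in BALB, 1 in SEAGN and 0 in AKR-named, and members higher 1 in Her2, 0 in C3Tag and 0 in AKR-named. These counts follow from the fold chosen. No share of all genes was computed at these folds, so the counts do not set the members apart from other genes. Centring on the median gene took the only partner gene higher in SEAGN, Itga2 (log2 ratio 1.01), below 2-fold, to a count of 0. It also took the partner genes higher in AKR-named from 4 to 3. Without C3Tag, 5 members instead of 3 were lower in every table, as Col6a3 and Tnxb joined Col6a1, Col6a2 and Postn. Without Her2, Tnc joined these 3, which gives 4. Of all genes, 10.1% were lower throughout without C3Tag and 11.0% without Her2, against 6.29% with all 5 tables. Leaving out any other table kept Col6a1, Col6a2 and Postn, beside 8.73% to 9.04% of all genes. Fn1 was the 1 member higher throughout in each case, beside 13.1% to 17.6% of all genes, so this count was not above the share of all genes. With no per-animal values or depth, none of these differences can be set against the spread between animals.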
